A study of Mus musculus with 12 samples.

Results

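The genes described here are 9 mouse genes of iron storage, transport and sensing, taken from the count table by symbol: Fth1, Ftl1, Ncoa4, Slc40a1, Tfrc, Slc11a1, Slc11a2, Aco1 and Ireb2. All 9 were found among the 50559 gene symbols of the table, and all 9 were among the 13530 genes that had enough reads to be tested. They were measured by RNA sequencing of poly(A) RNA in bone marrow-derived macrophages, which are macrophages grown in culture from marrow, of C57BL/6 mice. One group of 6 libraries came from macrophages given house dust mite (HDM) allergen for 1 h, the other group of 6 from macrophages given vehicle for 1 h. The HDM dose, the animals behind each library and their age are not given in the labels. The titles name 6 samples of each treatment and nothing says whether they came from separate cultures or animals, so p-values reflect the spread of these libraries, part of which may be technical.

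Macrophages hold much of the iron that the body recycles from old red cells, and they withhold it from microbes during infection. Iron enters bound to transferrin through the transferrin receptor, is moved out of endosomes by divalent metal transporters, is stored inside shells of ferritin and leaves through ferroportin. A pair of cytosolic iron regulatory proteins senses iron. When iron is scarce they bind hairpins in messenger RNA called iron-responsive elements (IREs), which blocks translation from a hairpin in the 5′ untranslated region (UTR) and protects the message from decay at hairpins in the 3′ UTR. A count of messenger RNA can record the second effect and does not record the first.

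The hairpins are shown because they sort these genes by how iron is known to act on them. Each line gives a 30-base stretch of the GENCODE M21 transcripts (GRCm38), 5′ to 3′, with the letters CAGTG of the hairpin's loop in capitals.
Fth1, 5′ UTR: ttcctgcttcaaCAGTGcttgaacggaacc
Ftl1, 5′ UTR: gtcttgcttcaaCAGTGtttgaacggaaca
Slc40a1, 5′ UTR: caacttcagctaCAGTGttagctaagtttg
Tfrc, 3′ UTR: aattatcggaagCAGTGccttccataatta
Tfrc, 3′ UTR: cattatcgggagCAGTGtcttccataatgc
Tfrc, 3′ UTR: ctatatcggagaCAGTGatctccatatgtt
Tfrc, 3′ UTR: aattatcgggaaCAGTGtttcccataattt
Slc11a2, 3′ UTR of the longer transcript: agccatcagagcCAGTGtgtttctatggtt
The search ran along the transcript strand for CNNNNNCAGTGNNNNNN with all 5 bases of the 5′ arm able to pair with the 3′ arm, G with U included. Among the longest complete coding transcripts of 21747 genes, 0.0966% held a match in the 5′ UTR and 0.538% in the 3′ UTR. Tfrc, with 4, was the 1 gene with 3 or more matches in the 3′ UTR. Slc11a2 matched under a looser form, tried after the first search had found nothing in it, that allows 1 unpaired base in the 3′ arm and is met in 0.952% of 3′ UTRs. The ferritin sites lie at chr19:9982732-9982761 on the + strand for Fth1 and chr7:45459778-45459807 on the - strand for Ftl1, that of Slc40a1 at chr1:45925464-45925493 on the - strand and that of Slc11a2 at chr15:100395152-100395181 on the - strand. The Tfrc sites lie on the + strand of chromosome 16, the first at chr16:32631219-32631248 and the last at chr16:32631710-32631739. All are exonic. The Slc11a2 match is in 1 of its 2 complete coding transcripts, and the counts are per gene, so the 2 forms were not told apart. Neither search matched in the UTRs of Slc11a1, Ncoa4, Aco1 or Ireb2.

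Libraries held 19.69 M to 119.71 M counted reads. The cytokine gene Tnf, an early target of macrophage activation, was read as a check of the labels and went from 12.03 ± 0.994 to 160 ± 32.8 counts per M reads (CPM, mean ± SD of 6 libraries). In a principal component analysis of log2 CPM the leading axis, with 41.3% of the variance, parted numbers 5 and 6 from numbers 1 to 4 in either treatment. All 10 macrophage markers, with Lyz2, Csf1r, Cd68 and Adgre1 among them, were tested. Of these 1, Cd14, was called, as higher, which is 10% of the list against 5.37% of all tested genes. The summed level of the 10 was 18352.5 to 21935 CPM with HDM and 17288 to 21632 with vehicle. Markers of other blood and immune cells were low: 4 of 12 erythroid markers, among them the globin genes Hba-a1, Hbb-bs and Hbb-bt, had no read in any library, and the whole erythroid list summed to 0.968 CPM at most. The 9 lymphocyte markers summed to 4.61 CPM at most and the 7 dendritic cell markers to 1.20. The 8 stromal and endothelial markers summed to more, 12.9 to 41.0 CPM. Of these 8, 5 were tested and 0 called. With the library number as a block 2 were called as lower, in a fit that called 6.81% of all tested genes as lower.

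None of the 9 iron genes was called between HDM and vehicle after 1 h, with a call meaning an adjusted p under 0.05 in edgeR's quasi-likelihood test. Over all tested genes 5.37% were called, 2.9% as higher and 2.47% as lower with HDM. Of the 9, 1 had an unadjusted p under 0.05. The share of all tested genes under that bound was not counted, here or for the lists below. DESeq2 called 1 of the 9 and limma-voom 0, in fits that called 7.06% and 5.76% of all tested genes. With the library number as a block 1 of the 9, Slc11a2, was called as lower, in a fit that called 14.7% of all tested genes. The gene nearest to a call was Slc11a2, the divalent metal transporter gene, which was 7.28% lower with HDM. The other 8 had log2 fold changes of 0.06 or less in size. The median over the 9 was 0.00, as it was over all tested genes.

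**Figure D1:**
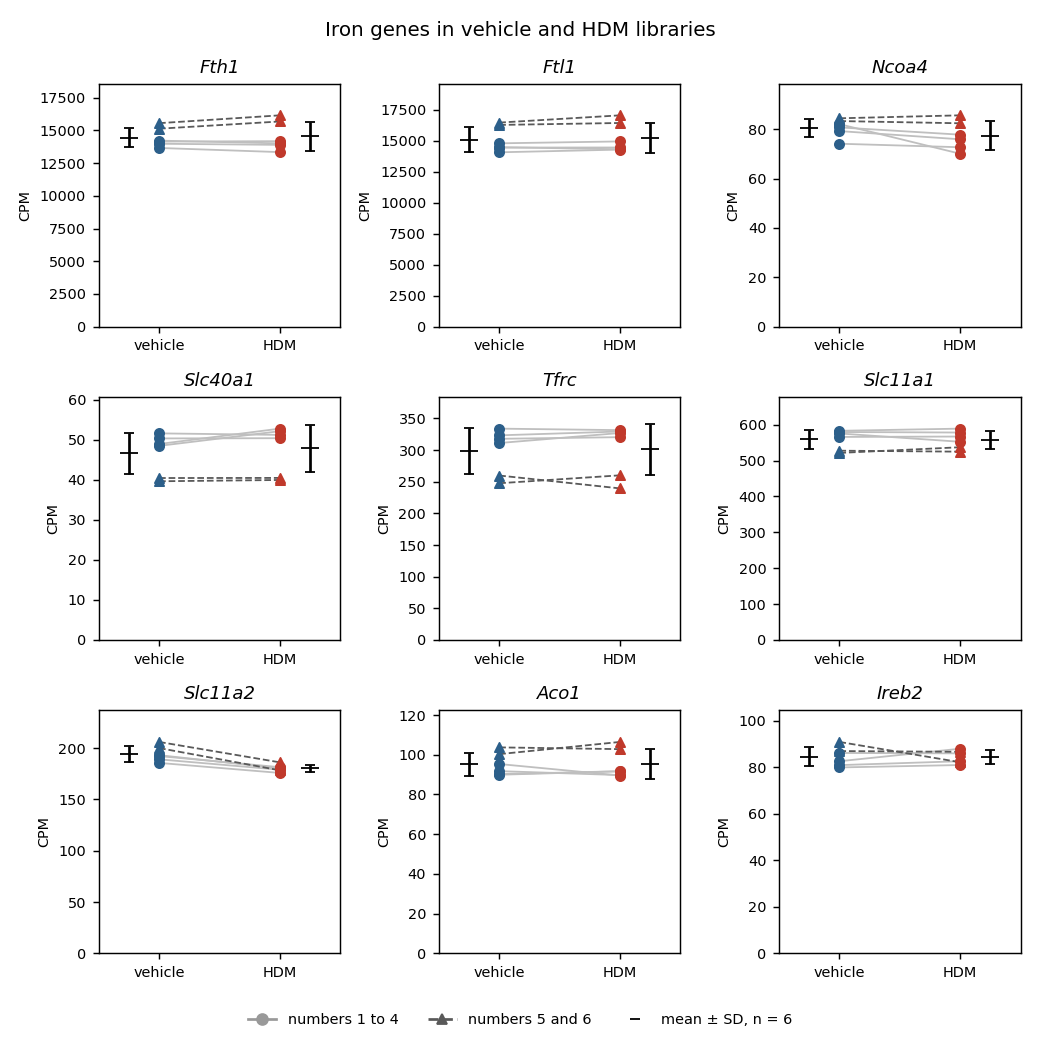
Level of each of the 9 iron genes in CPM (y axis, from 0) in vehicle and HDM libraries (x axis), with lines joining libraries of the same number, circles and solid lines for numbers 1 to 4, triangles and dashed lines for numbers 5 and 6, and black bars for the mean ± SD of 6 libraries. Slc11a2 is lower with HDM in all 6 numbers, while Tfrc and Slc40a1 part by library number and not by treatment.

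Ferritin was the most abundant product of the list. Fth1 encodes the heavy chain, which oxidises iron for storage, and Ftl1 the light chain, which helps form the mineral core. Fth1 lay between 13342 and 16153 CPM with HDM (median 14095) and between 13660 and 15554 with vehicle (median 14183). Ftl1 lay between 14279 and 17043 CPM with HDM (median 14694) and between 14062 and 16456 with vehicle (median 14628). The groups overlapped almost entirely for both genes. Together they took 2.79% to 3.22% of all counted reads with HDM and 2.87% to 3.16% with vehicle. The log2 fold change was 0.01 ± 0.06 SE for Fth1 (95% interval -0.12 to 0.13, adjusted p = 1.00 by edgeR) and 0.02 ± 0.06 SE for Ftl1 (-0.12 to 0.15, adjusted p = 1.00), so a change in either message of more than 1.11-fold in either direction lies outside these intervals.

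The 2 chains were read almost equally often. The ratio of Fth1 to Ftl1 counts within a library, which no scaling touches, was 0.930 to 0.981 with HDM and 0.930 to 1.01 with vehicle. It was higher with HDM in 3 of the 6 numbers. Both genes have near-identical processed copies in the genome, and those listed in the table held 0.0100% of the reads of Fth1 and 0.0664% of those of Ftl1 at most. How reads that fit several copies were counted is not given in the sources used here. The values of both genes carry that uncertainty. Ftl1 also shares exonic bases with the gene models Gm22133 and Gm10252 in GENCODE M21, which were not matched in the table.

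Ncoa4 encodes the receptor that brings ferritin to lysosomes so that its iron is set free. It lay between 70.1 and 85.6 CPM with HDM (median 76.9) and between 74.1 and 84.4 with vehicle (median 81.4). It was lower with HDM in 5 of 6 numbers and the ranges overlapped. The log2 fold change was -0.06 ± 0.05 SE (95% interval -0.17 to 0.05, adjusted p = 0.798 by edgeR, and 0.211 with the library number as a block). A processed copy, Ncoa4-ps, held between 1.07% and 1.86% of the reads of Ncoa4.

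Among the transporters, only Slc11a2 stood near the threshold. Slc11a2 encodes DMT1, which carries ferrous iron across the membranes of endosomes and of the gut lining. With HDM it lay at 175.9 to 186.2 CPM (median 179.7) and with vehicle at 185.7 to 206.1 (median 192.8). The groups met at 1 point: the HDM library numbered 5 lay just above the vehicle library numbered 4, and the other 5 HDM libraries lay below every vehicle library. The HDM library was the lower of the 2 in each of the 6 numbers. The labels state no pairing by number, and any pairing that does not join HDM 5 to vehicle 4 gives the same count. The mean went from 194.5 ± 7.48 to 180.3 ± 3.49 CPM (SD, n = 6 each), a log2 fold change of -0.11 ± 0.03 SE (95% interval -0.17 to -0.04, unadjusted p = 0.00317, adjusted p = 0.0559 by edgeR). With the library number as a block it was -0.11 ± 0.02 SE (adjusted p = 0.00296), a fit that called 14.7% of all tested genes, 7.9% as higher and 6.81% as lower. Across 22 alternative fits the adjusted p ran from 0.00296 to 0.181 and 5 fits called the gene, always as lower.

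The Slc11a2 value was below 0 in both sets of libraries. In numbers 1 to 4 alone its log2 fold change was -0.08 ± 0.03 SE (adjusted p = 0.124 by edgeR), and in numbers 5 and 6 alone it was -0.15 ± 0.04 SE (adjusted p = 0.00376). Whether the 2 sets differ in it was not tested. Upper-quartile factors gave -0.12 (adjusted p = 0.0141), total counts -0.13 (0.00883) and DESeq2 -0.10 (0.0139). Over all tested genes these fits called 5.68%, 5.62% and 7.06%. Upper-quartile factors and total counts also lowered the median log2 fold change of all genes, from -0.0048 to -0.021 and -0.025, and their calls were 360 higher and 408 lower and 347 higher and 413 lower, against 393 and 334. Less that median, Slc11a2 stood at -0.10 in all 3 scalings. Limma-voom, robust dispersion and no filter on low counts left Slc11a2 uncalled (adjusted p = 0.0502, 0.0549 and 0.181) and called 5.76%, 5.39% and 2.05% of all genes they tested. The background was 7.88% in numbers 1 to 4 alone and 8.47% in numbers 5 and 6 alone. Against Tfrc as a yardstick within each library, the ratio of Slc11a2 to Tfrc counts was lower with HDM in 6 of 6 numbers. The antisense gene Gm5475 overlaps 402 of its exonic bases in GENCODE M21 but had 17 reads over all 12 libraries, against 103276 for Slc11a2.

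Slc11a1 encodes NRAMP1, the metal pump of phagosomes by which macrophages starve engulfed microbes. C57BL/6 mice are known to carry a loss-of-function form of the protein, and the count shows the message, not the function. It lay between 525 and 589 CPM with HDM (median 560) and between 521 and 583 with vehicle (median 571). The 2 ranges nearly coincide. Its log2 fold change was -0.0019 ± 0.04 SE (95% interval -0.09 to 0.09, adjusted p = 1.00 by edgeR). Slc11a1 counts exceeded those of its relative Slc11a2 in every library, 2.88 to 3.29 times with HDM and 2.53 to 3.12 times with vehicle, and the ratio was higher with HDM in 6 of 6 numbers.

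Tfrc encodes the transferrin receptor, the main door for iron, and Slc40a1 encodes ferroportin, the only known iron exporter of mammalian cells. Tfrc lay between 239 and 332 CPM with HDM (median 324) and between 248 and 334 with vehicle (median 314). Slc40a1 lay between 39.98 and 52.8 CPM with HDM (median 50.8) and between 39.7 and 51.6 with vehicle (median 48.7). The ranges nearly coincide for both genes. The log2 fold change was 0.01 ± 0.10 SE for Tfrc (95% interval -0.20 to 0.23, adjusted p = 1.00 by edgeR) and 0.04 ± 0.09 SE for Slc40a1 (-0.16 to 0.23, adjusted p = 1.00). These were the widest intervals of the 9 genes. With the number as a block they narrowed to -0.05 to 0.06 for Tfrc and -0.02 to 0.10 for Slc40a1, and neither gene was called (adjusted p = 0.867 and 0.462).

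The ratio of uptake to export messages did not separate the treatments. Tfrc to Slc40a1 counts stood at 5.99 to 6.42 with HDM and 6.03 to 6.82 with vehicle, higher with HDM in 3 of 6 numbers. The ratio also stayed at 5.99 to 6.55 in libraries 5 and 6 and at 6.03 to 6.82 in libraries 1 to 4, although both genes were lower in libraries 5 and 6.

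Aco1 and Ireb2 encode the iron regulatory proteins. The first doubles as the cytosolic aconitase when it holds an iron-sulphur cluster, and the second is destroyed when iron is plentiful, so their control is known to lie mostly in the proteins. Aco1 lay between 89.5 and 106 CPM with HDM (median 91.7) and between 89.9 and 104 with vehicle (median 93.5). Ireb2 lay between 81.0 and 88.1 CPM with HDM (median 84.4) and between 79.99 and 90.98 with vehicle (median 84.4). Neither gene showed a difference beyond the spread of the libraries. Log2 fold changes were 0.0023 ± 0.05 SE for Aco1 (95% interval -0.11 to 0.12) and -0.0028 ± 0.04 SE for Ireb2 (-0.08 to 0.08), with adjusted p = 1.00 for both by edgeR.

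**Figure D2:**
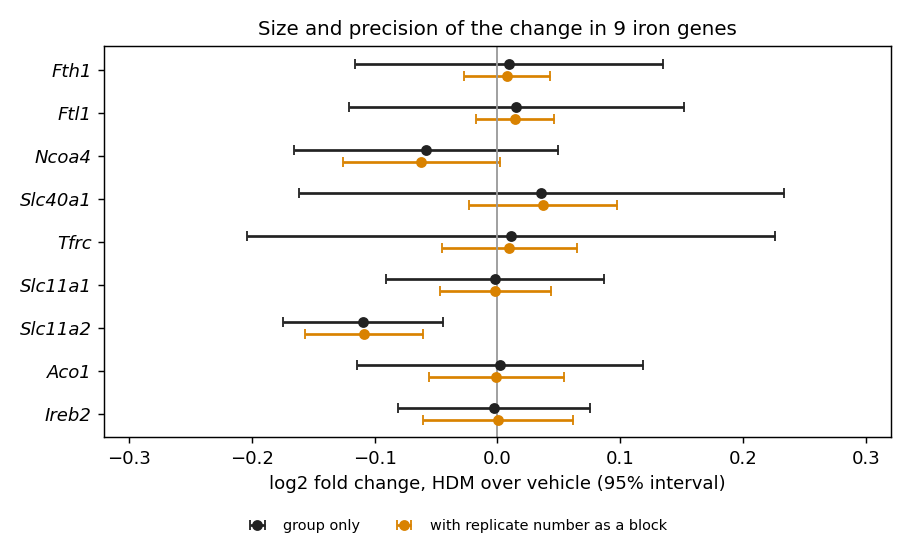
Log2 fold change of HDM over vehicle (x axis) with its 95% interval for each of the 9 iron genes (y axis), black for the fit with treatment alone and orange with the library number as a block. The interval of Slc11a2 lies below 0 in both fits, from -0.17 to -0.04 and from -0.16 to -0.06, and those of the other 8 genes span 0.

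The 9 messages differed far more from each other than between treatments. Lengths were those of a gene's principal transcript, the longest where several are annotated as equal. Per kb of it, Ftl1 stood at 15580 ± 1054 CPM per kb with vehicle and Fth1 at 9671 ± 489 (SD, n = 6 each). Over all 12 libraries they ranked 1 and 2 of 11710 genes with such a length, out of 13530 tested. Slc11a1 followed at 241 ± 11.8 CPM per kb. Slc11a2 at 64.3 ± 2.47 and Tfrc at 61.1 ± 7.36 CPM per kb had overlapping ranges. Aco1 stood at 24.8 ± 1.49, Ncoa4 at 19.8 ± 0.907, Ireb2 at 14.7 ± 0.724 and Slc40a1 at 13.8 ± 1.54 CPM per kb, with overlap between Ireb2 and Slc40a1. The length used was 1494 bases for Fth1 and 968 for Ftl1. Shorter Fth1 transcripts are annotated, and a shorter length would raise its value, so the gap between Ftl1 and Fth1 rests on the length used. The order rests on the lengths used: over all annotated exons of a gene Tfrc stood above Slc11a2 and Ireb2 above Ncoa4. By that length Ftl1 stood at 11314 and Fth1 at 4179 CPM per kb, as means of all libraries.

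**Figure D3:**
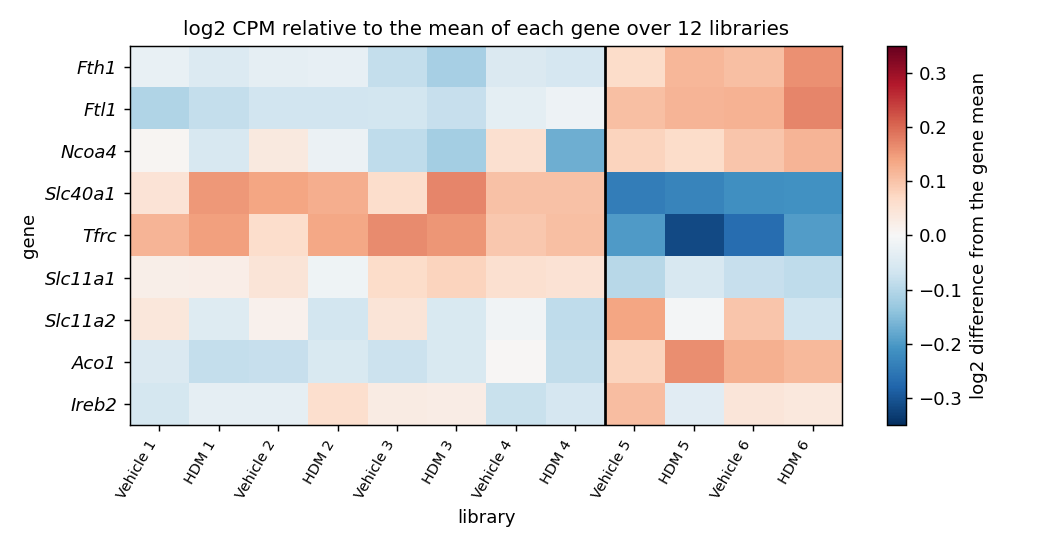
Log2 CPM of the 9 iron genes (rows) in 12 libraries (columns, vehicle and HDM of each number side by side) as the difference from the mean of each gene, red for higher and blue for lower, with a black line before the libraries numbered 5 and 6. To the right of the line Tfrc and Slc40a1 are lower and Fth1, Ftl1 and Aco1 higher in all 4 libraries.

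For most of the iron genes, though not for Slc11a2, library numbers 5 and 6 differed from 1 to 4 by more than HDM differed from vehicle. In numbers 5 and 6, of both treatments, Tfrc averaged 252 CPM against 324 in numbers 1 to 4, a ratio of 0.776, and Slc40a1 40.2 against 50.8 CPM, a ratio of 0.791. Ftl1 stood at 1.14, Aco1 at 1.13, Fth1 at 1.12 and Ncoa4 at 1.10 times the level of numbers 1 to 4, and Slc11a1 at 0.920 times. In each of these 7 genes the 4 libraries of numbers 5 and 6 did not overlap the 8 others. Ireb2, at 1.04 times, and Slc11a2, also at 1.04, did overlap. The share of all tested genes that part in this way was not counted. The same split is the leading axis over all tested genes, with 41.3% of the variance, so it is not particular to the iron genes. This split was seen in the data and is not a group of the labels, so these values are a description, with no test.

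Other genes differed along the same split. The summed level of 8 stromal and endothelial markers was 34.6 to 41.0 CPM in numbers 5 and 6 and 12.9 to 16.3 CPM in the others, and that of the 10 macrophage markers 17288 to 18598 against 18357 to 21935 CPM. The 9 neutrophil markers summed to 5.52 to 6.64 CPM in numbers 5 and 6 and to 3.58 to 6.05 in the others. Hmox1, which encodes the enzyme that frees iron from heme, averaged 818 CPM in numbers 5 and 6 and 1225 in the others. The part of such differences in the iron genes was not tested, and in bulk samples fewer cells of a type and less RNA per cell cannot be told apart. Each number holds 1 library of each treatment, so the split does not coincide with HDM.

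Likeness between genes was read from log2 CPM over the 12 libraries, among 10794 tested genes that averaged 1 CPM or more. The 2 sets of libraries stand apart, so for genes that part by set, such as Tfrc and Slc40a1, the ranking over all 12 mostly follows that split. In Slc11a2 the sets overlapped. The genes named are those that ranked highest over the 12, and the correlation given for each is the one within the 8 libraries numbered 1 to 4. Those 8 are among the 12 used for the ranking, so these correlations are not independent of the choice and can be raised by it. The genes ranked most like Slc11a2 were Atg14, which encodes a subunit of an autophagy kinase complex, Igflr1 and Flcn, which encodes folliculin. Within those 8 libraries their Pearson correlation with Slc11a2 was 0.881, 0.911 and 0.856. Those ranked highest for Tfrc were Olfm1, Serpinb6b and Tspan3 (0.930, 0.618 and 0.646 within the 8), and those for Slc40a1 were Plod1, Tubb4b and Carmil1 (0.845, 0.757 and 0.923). Fth1 and Ftl1, both higher in numbers 5 and 6, correlated at -0.08 within the 8 libraries, and Tfrc and Slc40a1 at 0.00. The 8 libraries hold both treatments and share a scaling, so a correlation can follow the treatment, and the values describe likeness only.

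Other genes of iron handling were read from 7 lists with 89 genes, of which 74 were tested. There were 6 calls, 5 rises and 1 fall, and 5 of the 6 were regulators. That is 8.11% of the 74, against 5.37% of all tested genes. With the number as a block there were 15, 9 rises and 6 falls, or 20.3% against 14.7%. The regulators alone stood at 41.7%, and at 58.3% with the block. Outside them the 1 call was among 19 tested genes of mitochondrial iron and iron-sulphur clusters, or 5.26% of that list. The lists were drawn up with earlier results of these data known, so these shares are no independent evidence. The median log2 fold change over the 74 was 0.01, against 0.00 over all tested genes.

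Of the regulators of iron genes 5 of 12 tested rose and 0 fell, against 2.9% of all tested genes that rose. The list was drawn up with earlier results of these data known, so its count is no independent evidence. Limma-voom and DESeq2 also called 5 each, and the block gave 5 rises and 2 falls. Nfe2l2, which encodes the antioxidant factor NRF2 that drives ferritin and ferroportin transcription, lay at 275 to 366 CPM with HDM (median 303) and 231 to 277 with vehicle (median 243). All but 1 HDM library lay above every vehicle library. Its log2 fold change was 0.34 ± 0.08 SE (adjusted p = 0.0218 by edgeR), and the call was lost without vehicle 1, vehicle 2 or vehicle 3 (adjusted p 0.0510 to 0.0557). Mtf1, which encodes a metal-responsive transcription factor, rose from 35.8 ± 2.18 to 41.2 ± 2.35 CPM (0.20 ± 0.05, adjusted p = 0.0275 by edgeR), a call lost without HDM 3, HDM 4, vehicle 1 or vehicle 2 (0.0501 to 0.0625), with no filter (0.0528) and in numbers 5 and 6 alone (0.162). Both genes were higher with HDM in all 6 numbers.

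The other 3 rises were in genes of mRNA decay. Zc3h12a encodes Regnase-1, a nuclease that is known to cut hairpins in the 3′ UTR of Tfrc among other messages. Its mean was 98.9 ± 3.40 CPM with HDM against 78.7 ± 9.38, a rise of 0.33 ± 0.07 SE on the log2 scale (adjusted p = 0.0121 by edgeR), and every HDM library lay above every vehicle library. Zfp36, which encodes tristetraprolin, a decay factor known to act on Tfrc and other messages, rose from 102 ± 22.1 to 633 ± 37.2 CPM, and its relative Zfp36l1 from 8.62 ± 1.22 to 28.8 ± 5.23 CPM (2.63 ± 0.13 and 1.74 ± 0.13, adjusted p = 3.53e-08 and 1.92e-06 by edgeR). In the same libraries Tfrc stood at 301 ± 40.6 CPM with HDM and 299 ± 36.0 with vehicle. These SDs include the split by library number, with means of 324 CPM in numbers 1 to 4 and 252 in 5 and 6. Whether the 3 rises bear on Tfrc was not tested.

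None of the other 7 regulators was called. Keap1, whose product marks NRF2 for destruction, had a log2 change of -0.12 ± 0.04 SE (adjusted p = 0.121 by edgeR, and 0.00853 with the block). Bach1, which encodes the heme-sensing repressor of ferritin and Hmox1 genes and is named after its values were seen, was at -0.15 ± 0.07 SE (adjusted p = 0.358, and 0.000714 with the block). Hif1a was at 0.07 ± 0.03 SE (adjusted p = 0.323).

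**Figure D4:**
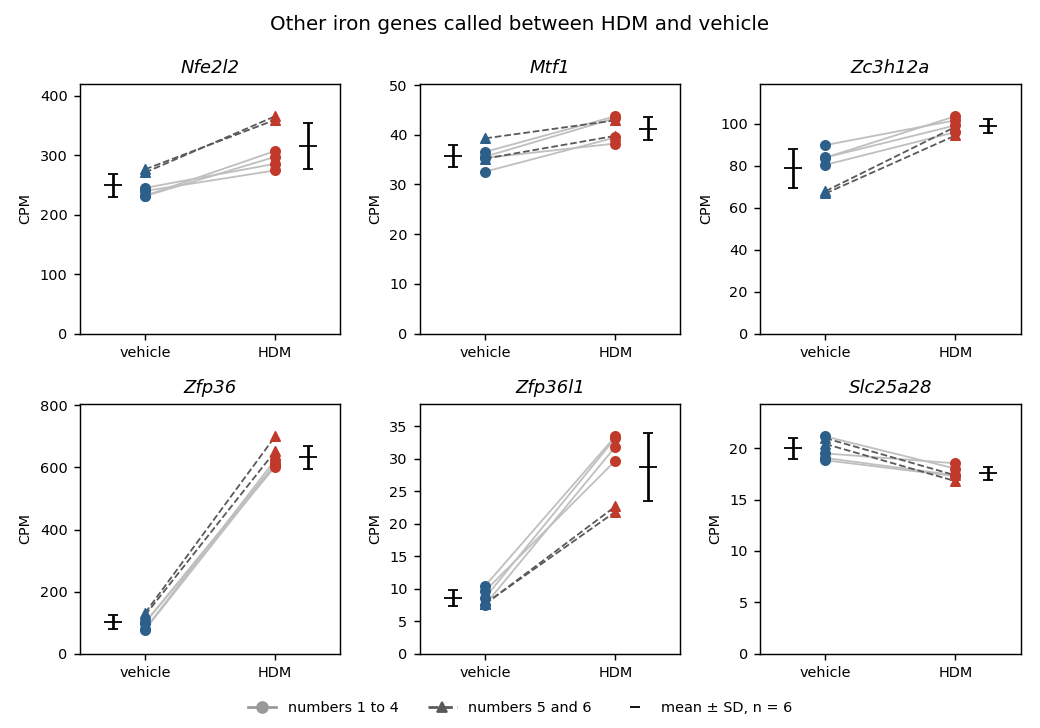
Level in CPM (y axis, from 0) of the 6 other iron genes that were called, in vehicle and HDM libraries (x axis), with lines joining libraries of the same number, triangles and dashed lines for numbers 5 and 6, and black bars for the mean ± SD of 6 libraries. The 5 regulators are higher and Slc25a28 lower with HDM in all 6 numbers.

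The 1 fall was in Slc25a28, which encodes mitoferrin-2, a carrier that brings iron into mitochondria. It went from 19.98 ± 0.997 to 17.6 ± 0.614 CPM, with every HDM library below every vehicle library (log2 fold change -0.19 ± 0.04 SE, adjusted p = 0.0192 by edgeR). The call was lost without vehicle 4 (adjusted p = 0.0504), in numbers 1 to 4 alone (-0.14, adjusted p = 0.123, and 0.0660 with the block) and with no filter on low counts (0.0574). It was the 1 call among 19 tested genes of mitochondrial iron and iron-sulphur clusters, or 5.26%, against 5.37% of all tested genes. Of the others Isca1 was at 0.09 ± 0.04 SE (adjusted p = 0.243) and Iba57, an assembly factor gene, at -0.21 ± 0.09 SE (adjusted p = 0.328, and 0.0333 with the block).

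Genes of iron uptake had 0 calls in 10 tested. Limma-voom and DESeq2 made 0 too. The block made 2, or 20% against 14.7% of all tested genes. An unadjusted p under 0.05 was found in 1 gene, with no share over all genes counted. Slc39a14, which encodes a transporter of iron not bound to transferrin, averaged 57.5 ± 2.03 CPM after HDM against 52.7 ± 5.05 (log2 fold change 0.12 ± 0.06 SE, adjusted p = 0.364 by edgeR, and 0.0252 with the block). Lrp1, which encodes a large scavenging receptor that takes up heme bound to hemopexin, was at 0.21 ± 0.09 SE (adjusted p = 0.265, and 0.0412 with the block). In Lrp1 the sets of libraries went apart, with 0.36 ± 0.07 SE in numbers 1 to 4 (adjusted p = 0.00688) and -0.08 ± 0.04 SE in numbers 5 and 6 (0.305). That difference itself was not tested. Tfr2, Steap1, Steap2, Steap4, Cybrd1, Scara5, Slc22a17 and Ltf had too few reads to be tested, from 1 to 98 over all 12 libraries.

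Of 7 other genes of iron export and of hepcidin, the hormone that removes ferroportin from the membrane, 2 were tested and 0 called (0 at an unadjusted p under 0.05 in edgeR's test, 0 by each other tool). Cp, which encodes the ferroxidase ceruloplasmin, averaged 3.25 ± 2.15 CPM after HDM against 3.87 ± 2.54 (log2 fold change -0.29 ± 0.59 SE, adjusted p = 0.996 by edgeR). It lay at 0.578 to 0.828 CPM in libraries 5 and 6 and at 3.66 to 6.57 in the others. With the block Cp was at -0.24 ± 0.09 SE (adjusted p = 0.0716 by edgeR), and it was lower with HDM in 5 of 6 numbers. Rnf217, which encodes a ubiquitin ligase of ferroportin, was at 0.07 ± 0.06 SE (adjusted p = 0.815). Hamp had 3 reads over the 12 libraries, and Hamp2 and Hjv had 0.

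Partners in ferritin loading and iron sensing had 0 calls in 14 tested genes. Limma-voom and DESeq2 made 0 too. The block made 3, in a fit that called 14.7% of all tested genes. An unadjusted p under 0.05 was found in 3, with no share over all genes counted. Pcbp2, an iron chaperone gene, had a log2 change of -0.06 ± 0.03 SE (adjusted p = 0.454 by edgeR), and Herc2, which encodes a ligase of NCOA4, at 0.18 ± 0.09 SE (0.390, and 0.0350 with the block). Herc2 was at 0.29 in libraries 1 to 4 (adjusted p = 0.0115) and at -0.01 in 5 and 6 (0.949). Ciapin1 and Nubp2, genes of cytosolic iron-sulphur assembly, were at 0.16 ± 0.06 SE and -0.09 ± 0.03 SE (adjusted p = 0.137 and 0.174, and 0.00438 and 0.0260 with the block). Ftmt, the mitochondrial ferritin gene, had 0 reads.

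Heme handling had 0 calls in 17 tested genes. Limma-voom and DESeq2 made 0 too. The block made 1, or 5.88% against 14.7% of all tested genes. An unadjusted p under 0.05 was found in 2, with no share over all genes counted. Hmox1 averaged 1103 ± 227 CPM after HDM against 1075 ± 228 (log2 fold change 0.04 ± 0.16 SE, adjusted p = 1.00 by edgeR, named after its values were seen). Ppox and Alad, which encode enzymes of heme synthesis, were at -0.14 ± 0.04 SE and -0.12 ± 0.05 SE (adjusted p = 0.123 and 0.229, and 0.0446 and 0.0604 with the block).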

How the data were processed

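The authors deposited 1 table of raw counts per gene symbol for 12 libraries, matched to titles by library name. The submitters' processing notes name STAR 2.6.0c, featureCounts 2.0.6 of Subread, cutadapt 4.5, FastQC 0.12.1 and Trim Galore 0.6.10, and the builds GRCm38 and mm39, with no role for either. Per the labels' protocols the kit was stranded and poly(A)-selecting. The strand setting of the counting is not given in the sources used here. No line lacked a gene name.

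Counts were tested with edgeR 4.0.16 (R 4.3.3, limma 3.58.1, DESeq2 1.42.0 for alternatives): TMM factors, filterByExpr, quasi-likelihood F test, treatment as the only term, Benjamini-Hochberg over all tested genes, threshold 0.05. CPM use TMM factors and log2 CPM a prior count of 1. The test was tried on simulated counts. Deviations of HDM and vehicle libraries of the same number correlated at 0.362 to 0.657, above the bound of 0.1, so numbers were taken as pairs from the data, not from the labels. Only 2 of 6 numbers correlated best with themselves, the others with another number of the same set (1 to 4, or 5 and 6), so these values do not single out same-numbered pairs within a set. UTR hairpins come from GENCODE M21.

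The 9 genes, the lists and the tests were chosen with earlier results of these data known. Named are the 9, called genes of the other lists, 2 more per list with the smallest p, the 3 genes most like a member, and Tnf. An alternative fit and the looser hairpin form were added after seeing the data. Alternatives were other factors, tools, filters, the block, library sets and leaving out each library.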

Additional observations from a re-analysis of the deposited data

Results flagged for a closer look

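Of 58 sets of 6 values checked, 1 had a library far from the others, and chance marks about 1 in 20 such sets. Rnf217 lay at 9.58 CPM in the vehicle library numbered 5 and at 7.999 to 8.48 CPM in the other 5 vehicle libraries.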

How the results depend on the processing

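No call among the 9 iron genes was made without any 1 library (0 to 0 calls), with limma-voom, with robust dispersion, with no filter or in libraries 1 to 4. The replicate block, upper-quartile factors, total counts, DESeq2 and libraries 5 and 6 each gave 1, Slc11a2. Other iron genes had 6 calls in the main fit (8.11% of the 74 tested, against 5.37% of all tested genes). With the replicate block they had 15 (20.3% against 14.7%). In libraries 5 and 6 they had 10, in a fit that called 8.47% of all tested genes, and without 1 library 4 to 7. All genes called went from 727 to 1990 with the block, 1139 in libraries 5 and 6 and 561 to 694 without 1 library, and to 1741 in libraries 1 to 4 with the block, a fit added after seeing the data. Slc11a2 was lower in all 22 alternatives (-0.15 to -0.08 on the log2 scale).

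Changes near 0 changed sign with the setting, as did those of Lrp1 and Herc2 in libraries 5 and 6. Upper-quartile factors and total counts shifted all genes alike, to a median of -0.021 and -0.025 from -0.0048, and less that median Fth1, Ftl1, Tfrc and Aco1 stayed above 0. With upper-quartile factors and total counts, in that order, Fth1 was at -0.0069 and -0.011, Ftl1 at -0.00098 and -0.0045, Tfrc at -0.0051 and -0.0079, Aco1 at -0.014 and -0.018. In libraries 1 to 4, without and with the block, Fth1 was at -0.012 and -0.012, Aco1 at -0.015 and -0.016, Ireb2 at 0.036 and 0.038. In libraries 5 and 6 Tfrc was at -0.018, Slc11a1 at 0.021 and Ncoa4 at 0.0034. Lrp1 and Herc2, whose changes over all libraries were not near 0 (0.21 and 0.18), were at -0.075 and -0.0091 in libraries 5 and 6. DESeq2 put Slc11a1 at 0.00042 and Ireb2 at 0.0012, limma-voom put Slc11a1 at 0.00026, and the block put Aco1 at -0.0010 and Ireb2 at 0.00045. Without 1 library Fth1 ran from -0.021 to 0.035, Ftl1 from -0.017 to 0.042, Slc40a1 from -0.0038 to 0.082, Tfrc from -0.038 to 0.069, Slc11a1 from -0.020 to 0.017, Aco1 from -0.032 to 0.029 and Ireb2 from -0.015 to 0.019. The cause of these other sign changes was not tested. Each of the 9 genes had at least 766 reads in every library, and how far depth limits changes of a few percent was not tested.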
